A study of Homo sapiens with 9 samples.

Results

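HepG2 cells, an established human line from a hepatocellular carcinoma, were treated with insulin and T0901317, a synthetic agonist of the liver X receptors (LXR), and compared with control cells by RNA sequencing. The 3 treated samples (DNL, for de novo lipogenesis) were kept for 1 week in DMEM with insulin at 10 µg/ml and T0901317 at 10 µM, and the 3 control samples (WT) were kept in RPMI, with no duration stated in the labels. These are 6 of the 9 samples of the series, picked by their titles. The other 3 (OA) were kept in DMEM with oleic acid at 25 µM, dissolved in 11% bovine serum albumin, for 6 hours, and appear below only where a DNL value is set against this other treatment. All samples were HepG2 of wild-type genotype, and all media held 10% serum and 1% antibiotics. Medium, insulin, T0901317 and time differ together between DNL and WT, so their contributions cannot be told apart. The labels do not say whether replicates were separate cultures, so a p-value sets a difference against the spread of these samples only, and that spread may be technical.

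The LXR proteins are nuclear receptors for oxysterols. When they bind an agonist they raise genes of sterol export and the gene of the transcription factor SREBP-1c, which in turn drives fatty acid synthesis. Insulin acts on the same programme, raises SREBP-1c, and restrains the FOXO factors that drive glucose output and IGFBP1 in liver. A second factor, SREBP-2, is released when sterols in the endoplasmic reticulum are low and drives cholesterol synthesis and sterol uptake.

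Of 19317 listed genes, 13636 had enough counts to be tested. A gene is called where the Benjamini-Hochberg adjusted p of edgeR's quasi-likelihood test is under 0.05, and all adjusted p below are of this kind. By this rule 7342 genes, or 53.8% of those tested, differed between DNL and WT. The higher genes numbered 3692 (27.1%) and the lower genes 3650 (26.8%), and 983 (7.21%) and 692 (5.07%) of them differed at least 2-fold. Most genes tested were thus called, and each count of a gene list below is to be read against these shares. Values are CPM, estimated counts scaled to a common library size with trimmed mean of M values (TMM) factors, given for DNL replicates 1, 2 and 3 and WT replicates 1, 2 and 3 in that order, or as mean ± SD over n = 3. Changes are log2 fold changes of DNL against WT, with their standard error (SE). Unless stated otherwise, the 3 DNL values of a named gene lay all above or all below the 3 WT values, and the change was called. Such separation held for 64.7% of all tested genes. Many named genes were picked by small adjusted p or by separate groups, so their separation alone is no finding. Because TMM holds most genes level, scaling by library totals instead shifted the median change of all genes from -0.018 to -0.18, and 32.2% of called genes were then higher, against 50.3% here.

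**Figure D1:**
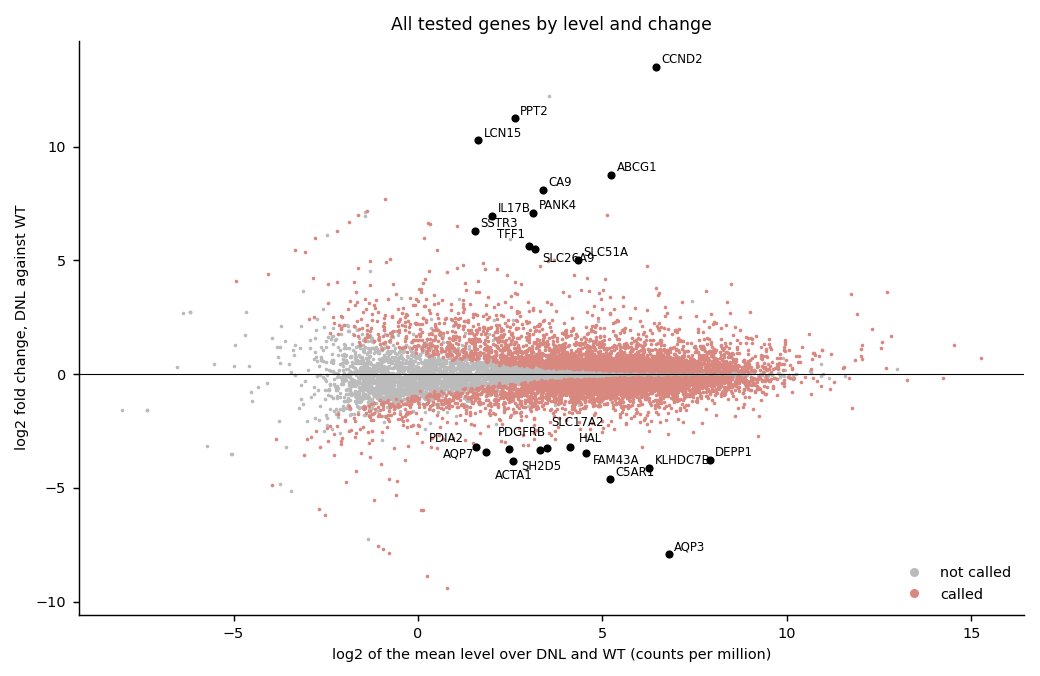
Each point is 1 of the tested genes, with the log2 of its mean level over the DNL and WT libraries on the horizontal axis and its log2 fold change, DNL against WT, on the vertical axis. Coloured points were called (53.8%), grey points were not, and the labelled black points are genes from the 12 largest rises and 12 largest falls among those of at least 5 CPM. CCND2 and ABCG1 stand far above and AQP3 far below genes of like level.

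Total estimated counts ran from 16447398 to 36147431 in DNL and from 26425694 to 43043347 in WT, and 3 counts corresponded to 0.0924 to 0.2 CPM in the DNL libraries. On log2 CPM over the tested genes, the lowest correlation between libraries within DNL or WT was 0.981 and the highest between DNL and WT was 0.954. The 20 most abundant genes took 19.7% to 20.5% of counts in DNL and 13.4% to 13.9% in WT, and mitochondrially encoded transcripts 5.28% to 6.65% and 2.92% to 3.55%. Both ranges were apart, and the part of these shares in the changes below was not tested. The OA libraries carried transcripts that DNL and WT lack. COL1A2, a fibroblast collagen that was chosen after its values were seen and is listed at 0 in all DNL and WT libraries, was at 10.2, 41.1 and 259.6 CPM in OA, and the summed level of 12 fibroblast and stellate cell markers was 93.1 to 94.4 CPM in DNL, 73.99 to 80.3 CPM in WT and 97.4, 229.5 and 1077 CPM in OA. OA replicate 3 stood furthest apart, so results against OA are given with and without it, and DNL against WT was also fitted without the OA libraries, where 3979 genes were higher and 3791 lower.

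Stretches of the promoters of 8 genes that the results turn on are printed first, from RefSeq on the GRCh38.p14 build. They show the short motifs discussed with the LXR targets, the cholesterol genes and the hypoxia targets, in capitals and on either strand. Each is 110 bases, 5′ to 3′ on the gene's own strand, and ends before the transcription start. In ABCA1 (chr9:104928165-104928274, minus strand) the capitals mark a match to the LXR element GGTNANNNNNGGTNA, and in SREBF2 (chr22:41832922-41833031, plus strand) a match to the sterol element TCACNCCAC. In HMGCS1 (chr5:43313453-43313562, minus strand), DHCR7 (chr11:71448394-71448503, minus strand) and MSMO1 (chr4:165327559-165327668, plus strand) they mark CCAAT boxes. In CA9 (chr9:35673818-35673927, plus strand), LDHA (chr11:18394440-18394549, plus strand) and BHLHE40 (chr3:4979238-4979347, plus strand) they mark the hypoxia element ACGTG.
ABCA1: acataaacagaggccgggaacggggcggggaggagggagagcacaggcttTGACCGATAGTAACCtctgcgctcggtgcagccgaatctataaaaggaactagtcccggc
SREBF2: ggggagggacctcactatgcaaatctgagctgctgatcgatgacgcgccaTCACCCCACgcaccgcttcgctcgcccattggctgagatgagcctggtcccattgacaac
HMGCS1: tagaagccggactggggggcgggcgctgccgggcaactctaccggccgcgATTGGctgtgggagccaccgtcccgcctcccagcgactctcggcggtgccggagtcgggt
DHCR7: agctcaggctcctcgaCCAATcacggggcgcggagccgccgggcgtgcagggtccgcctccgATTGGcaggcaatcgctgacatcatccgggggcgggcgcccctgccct
MSMO1: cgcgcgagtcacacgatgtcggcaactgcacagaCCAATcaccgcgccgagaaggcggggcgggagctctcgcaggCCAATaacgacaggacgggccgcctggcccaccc
CA9: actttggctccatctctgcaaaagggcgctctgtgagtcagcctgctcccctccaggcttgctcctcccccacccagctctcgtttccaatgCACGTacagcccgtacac
LDHA: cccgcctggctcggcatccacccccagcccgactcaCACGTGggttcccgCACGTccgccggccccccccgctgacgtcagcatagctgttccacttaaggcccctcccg
BHLHE40: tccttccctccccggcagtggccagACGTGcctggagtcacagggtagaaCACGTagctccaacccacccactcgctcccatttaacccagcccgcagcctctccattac

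Targets of LXR were higher in DNL almost throughout. Of 18 tested LXR targets, 16 rose, 12 of them at least 2-fold, and 0 fell, or 1 when libraries were scaled by their totals. The median change was 1.27, against -0.018 over all tested genes. ABCG1, which exports cholesterol to HDL, measured 77.3, 78.8 and 69.2 CPM in DNL and 0.230, 0.237 and 0 CPM in WT (log2 fold change 8.76, SE 0.29, adjusted p = 1.02e-09). MYLIP, a ubiquitin ligase that limits cholesterol uptake, measured 62.2, 56.02 and 61.2 CPM in DNL and 4.67, 4.27 and 4.65 CPM in WT (log2 fold change 3.72, SE 0.089, adjusted p = 4.48e-12). ABCA1, which exports cholesterol to lipid-poor apolipoprotein A-I, measured 1028, 996 and 1074 CPM in DNL and 467, 481 and 479 CPM in WT (log2 fold change 1.12, SE 0.066, adjusted p = 5.69e-08). The 3 DNL libraries lay above all WT libraries for each, and ABCG1 was at or near 0 in WT. ABCG5, a subunit of the biliary sterol exporter, and SMPDL3A, a phosphodiesterase, were not called, at 20.1, 22.2 and 18.6 CPM in DNL and 22.5, 25.2 and 21.9 CPM in WT (log2 fold change -0.19) and 47.5, 40.8 and 47.7 CPM in DNL and 51.03, 47.2 and 47.3 CPM in WT (log2 fold change -0.094). LPL was listed at 0 in DNL and WT.

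The lipogenic members of this list moved in the same direction. SREBF1, which encodes SREBP-1, measured 317, 316 and 297 CPM in DNL and 80.1, 77.2 and 78.6 CPM in WT (log2 fold change 1.98). LPCAT3, which puts polyunsaturated chains into phospholipids, measured 202, 217 and 229 CPM in DNL and 52.6, 57.01 and 51.9 CPM in WT (log2 fold change 2.01). PNPLA3, a lipase of lipid droplets and itself an SREBP-1 target, measured 65.4, 69.9 and 74.5 CPM in DNL and 12.5, 13.4 and 14.6 CPM in WT (log2 fold change 2.38). These rises were larger than that of ABCA1. The receptors themselves changed less and in opposite directions. NR1H3 (LXR alpha) measured 50.9, 43.6 and 45.2 CPM in DNL and 30.4, 27.3 and 24.5 CPM in WT (log2 fold change 0.77) and NR1H2 (LXR beta) 17.6, 15.7 and 18.2 CPM in DNL and 27.6, 25.4 and 25.8 CPM in WT (log2 fold change -0.61). Corepressor NCOR1 measured 231, 198 and 184 CPM in DNL and 287, 269.8 and 254 CPM in WT (log2 fold change -0.40) and coactivator NCOA1 38.5, 33.3 and 36.2 CPM in DNL and 46.5, 46.1 and 43.7 CPM in WT (log2 fold change -0.33).

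Of the 19 LXR targets, 14 had a promoter in RefSeq's table, 250 bases before to 50 after the start. The loose form of the LXR element, GGTNA repeated after a spacer of any 5 bases and read on both strands, was in 1 of the 14, the ABCA1 stretch above, and in 0.445% of the 11023 promoters of tested genes. The exact direct repeat of AGGTCA with 4 bases between was in 0 of the 14 and in 0 of the 11023. These windows are short, and a missing match says only that the letters are not within them.

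**Figure D2:**
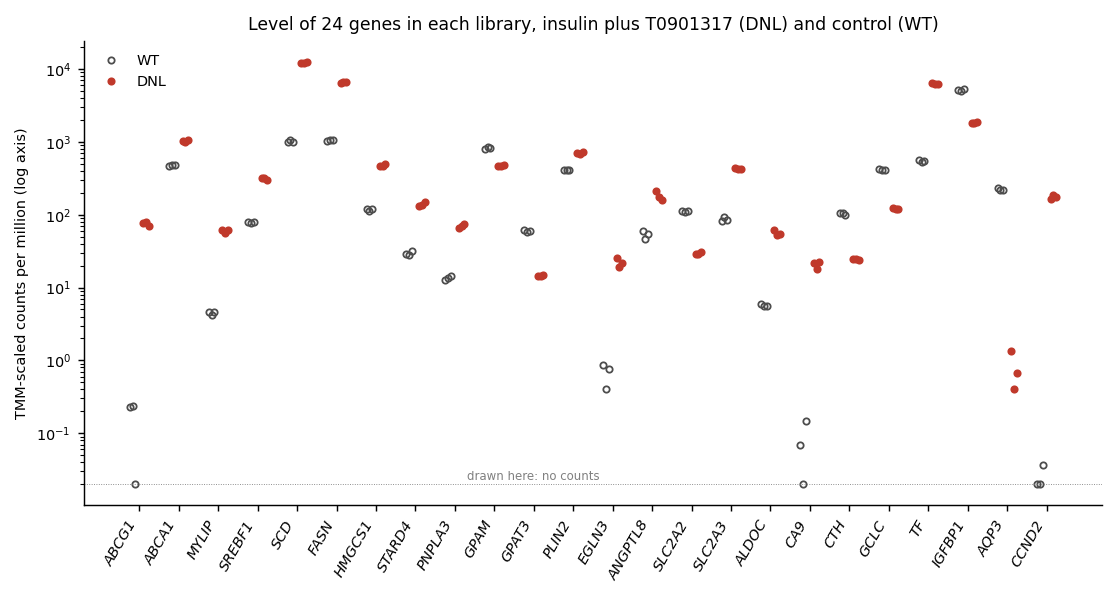
Each point is the level of 1 gene in 1 library, in TMM-scaled CPM on a log axis, with open grey circles for WT and filled red circles for DNL. Points on the dotted line had no counts. For all 24 genes, which were chosen for display, the 3 DNL libraries lie apart from the 3 WT libraries, as for 64.7% of all tested genes. The spread within a group is small beside the difference.

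Transcripts of fatty acid synthesis rose from the supply of acetyl-CoA to the desaturation of the product. Of 12 tested members, 9 rose, 6 at least 2-fold, and 0 fell (1 with scaling by library totals), with a median change of 1.08. ACSS2, which makes acetyl-CoA from acetate, measured 174, 165 and 186 CPM in DNL and 29.8, 30.7 and 30.3 CPM in WT (log2 fold change 2.54, SE 0.058, adjusted p = 3.54e-12). Next, FASN, which assembles palmitate, measured 6466, 6666 and 6615 CPM in DNL and 1029, 1062 and 1067 CPM in WT (log2 fold change 2.64). All DNL libraries were higher for both. SCD, the stearoyl-CoA desaturase, measured 12199, 12245 and 12542 CPM in DNL and 1008, 1054 and 994 CPM in WT (log2 fold change 3.60), and alone took 1.12% of all counts in DNL. ACACA, the cytosolic acetyl-CoA carboxylase, measured 433, 425 and 462 CPM in DNL and 145, 164 and 142 CPM in WT (log2 fold change 1.55), and ACACB, the isoform at the mitochondrion whose product restrains fatty acid import, 44.7, 49.2 and 44.4 CPM in DNL and 29.4, 32.1 and 33.5 CPM in WT (log2 fold change 0.54). The smaller change was thus that of the mitochondrial isoform. ME1, a source of NADPH for this pathway, was listed at 0 in DNL and WT, and the 3 mitochondrial synthesis genes tested, MCAT, OXSM and MECR, were not called.

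Among 21 desaturases, elongases and acyl-CoA synthetases, 13 rose and 2 fell. FADS2, the delta-6 desaturase, measured 645, 670.2 and 690.3 CPM in DNL and 43.3, 44.1 and 41.1 CPM in WT (log2 fold change 3.96). FADS1, the delta-5 desaturase, measured 613, 635 and 618 CPM in DNL and 145, 146 and 149 CPM in WT (log2 fold change 2.08). The desaturases of polyunsaturated chains thus rose, and the falls were elsewhere. FADS3, whose substrates are sphingoid bases, went the other way at 13.7, 18.03 and 15.5 CPM in DNL and 38.99, 39.6 and 40.01 CPM in WT (log2 fold change -1.34). ACSL5, an acyl-CoA synthetase, measured 299.9, 289 and 298 CPM in DNL and 479, 474 and 477 CPM in WT (log2 fold change -0.69) and was the other member to fall. NADPH supply changed in both directions. PGD, an NADPH-producing enzyme of the pentose phosphate pathway, measured 264, 249.8 and 252 CPM in DNL and 181, 179 and 179 CPM in WT (log2 fold change 0.51), while ALDH1L1, a folate enzyme that yields NADPH, measured 3.66, 3.86 and 3.45 CPM in DNL and 14.2, 12.5 and 15.2 CPM in WT (log2 fold change -1.94). Over the 10 tested members of that list 4 rose and 4 fell (2 without DNL replicate 1 or WT replicate 1).

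Transcripts of cholesterol synthesis rose in almost every step measured. Of 21 enzymes, 20 rose, 18 at least 2-fold, and 1 fell, with a median of 1.57. HMGCS1, which makes HMG-CoA, measured 469, 466 and 489.6 CPM in DNL and 119, 113 and 121 CPM in WT (log2 fold change 2.02). DHCR7, the last enzyme, measured 517, 543 and 534 CPM in DNL and 119, 118 and 124 CPM in WT (log2 fold change 2.14, SE 0.05, adjusted p = 4.05e-12). Transcripts of an early step and of the last step thus both rose. The single fall was PMVK, the phosphomevalonate kinase, at 7.45, 5.46 and 7.44 CPM in DNL and 10.2, 9.21 and 9.47 CPM in WT (log2 fold change -0.49, SE 0.15, adjusted p = 0.0131), and its call was lost without DNL replicate 2 or WT replicate 1. Of the 16 cholesterol genes with a promoter in the table, 12 (75%) held CCAAT, the box that binds NF-Y, on either strand, against 36.7% of all 11023, and the HMGCS1, DHCR7 and MSMO1 stretches above show it. The sterol element TCACNCCAC was in 0 of these 16 and in 1.12% of all.

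Transcripts of sterol sensing and uptake were higher with few exceptions. Of 15 members, 12 rose and 2 fell, with a median of 0.75. STARD4, a cytosolic sterol carrier, measured 132, 136 and 150.1 CPM in DNL and 29.03, 28.2 and 31.9 CPM in WT (log2 fold change 2.23). SREBF2, whose promoter stretch above holds the sterol element, measured 348, 363 and 383 CPM in DNL and 225, 245 and 233 CPM in WT (log2 fold change 0.64). INSIG1, which retains SREBP in the endoplasmic reticulum, was low throughout, at 1.76, 2.06 and 1.25 CPM in DNL and 0.184, 0.203 and 0.219 CPM in WT (log2 fold change 3.03). SCAP, the SREBP escort, measured 97.9, 108 and 123 CPM in DNL and 123, 128 and 121 CPM in WT. Its groups overlapped, and its call (log2 fold change -0.18, adjusted p = 0.0433) was lost with DESeq2, with relative log expression size factors, in the fit of the 6 DNL and WT samples, and when any 1 of DNL 1, DNL 2, OA 2 or a WT library was left out.

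Triacylglycerol assembly moved in both directions. Of 16 tested members 7 rose (4 with scaling by library totals) and 5 fell, with a median of 0.12. GPAM, the mitochondrial enzyme that adds the first acyl chain to glycerol-3-phosphate, measured 473, 461 and 486 CPM in DNL and 808, 847 and 819.8 CPM in WT (log2 fold change -0.80, SE 0.054, adjusted p = 6.08e-08). GPAT3, its counterpart in the endoplasmic reticulum, measured 14.6, 14.4 and 14.8 CPM in DNL and 61.99, 58.7 and 60.5 CPM in WT (log2 fold change -2.05). Both were lower in every DNL library. Later steps were mixed, with MOGAT2 and MOGAT3 lower and AGPAT3, LPIN2, LPIN3 and DGAT1 not called. AGPAT2, which adds the second chain, measured 16.4, 17.8 and 14.2 CPM in DNL and 4.47, 5.31 and 4.68 CPM in WT (log2 fold change 1.74) and LPIN1, the phosphatidate phosphatase, 90.4, 86.7 and 89.4 CPM in DNL and 34.3, 35.2 and 34.1 CPM in WT (log2 fold change 1.36). DGAT2, which adds the last chain, measured 62.02, 57.5 and 55.4 CPM in DNL and 50.4, 49.8 and 48.6 CPM in WT (log2 fold change 0.23). Its call (adjusted p = 0.0243) was lost with scaling by library totals and without DNL replicate 1, WT replicate 2 or WT replicate 3. Transcripts of 2 enzymes that supply glycerol-3-phosphate were lower. GPD1, which makes it from a glycolytic intermediate, was at 19.1, 18.7 and 17.7 CPM in DNL and 78.8, 81.7 and 84.6 CPM in WT (log2 fold change -2.14). GK, the glycerol kinase, was at 194, 208 and 219 CPM in DNL and 322, 333 and 333 CPM in WT (log2 fold change -0.67).

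AQP3 had the largest fall of all named genes. AQP3, an aquaglyceroporin of the plasma membrane, measured 1.35, 0.399 and 0.665 CPM in DNL and 232, 218 and 217 CPM in WT (log2 fold change -7.92, SE 0.17, adjusted p = 1.34e-10). AQP7, another, measured 0.924, 0.333 and 0.457 CPM in DNL and 7.04, 6.53 and 6.14 CPM in WT (log2 fold change -3.42). Both are channels for glycerol and were near the counting limit in DNL. AQP11, an intracellular member, measured 16.5, 16.8 and 19.7 CPM in DNL and 7.55, 7.38 and 8.74 CPM in WT (log2 fold change 1.17).

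Lipid droplet proteins changed in both directions. Of 17 tested, 6 rose and 4 fell (2 without DNL replicate 1), none of the rises reached 2-fold and 3 falls did. PLIN2, the main droplet coat of hepatocytes, measured 713, 691 and 732 CPM in DNL and 416, 411 and 409 CPM in WT (log2 fold change 0.79, SE 0.037, adjusted p = 2.21e-09). METTL7A, a droplet-bound methyltransferase-like protein, measured 85.1, 98.7 and 102 CPM in DNL and 47.03, 56.3 and 53.9 CPM in WT (log2 fold change 0.86). PLIN4 measured 10.4, 8.12 and 6.90 CPM in DNL and 18.4, 19.2 and 19.4 CPM in WT (log2 fold change -1.16) and PLIN5, which ties droplets to mitochondria, 1.05, 1.46 and 1.33 CPM in DNL and 2.76, 3.15 and 4.43 CPM in WT (log2 fold change -1.44). Both were lower in each DNL library. G0S2, an inhibitor of lipolysis, had too few counts to be tested, at 0.585, 0 and 0.0831 CPM in DNL and 0.368, 0.169 and 0.256 CPM in WT, with overlapping values.

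Lipases were mixed. Of 12 tested, 6 rose and 3 fell. LIPA, the lysosomal acid lipase, measured 357, 359 and 369 CPM in DNL and 135, 133 and 133 CPM in WT (log2 fold change 1.43, SE 0.046, adjusted p = 6.47e-11). PNPLA6, a phospholipase, measured 62.5, 73.7 and 70.6 CPM in DNL and 30.1, 27.7 and 26.5 CPM in WT (log2 fold change 1.29). PNPLA2, the adipose triglyceride lipase, measured 104.7, 107 and 107 CPM in DNL and 128, 114 and 124 CPM in WT (log2 fold change -0.20) and ABHD5, its coactivator, 5.36, 3.33 and 3.95 CPM in DNL and 12.8, 13.2 and 10.97 CPM in WT (log2 fold change -1.52). The lysosomal enzyme was thus higher, and the neutral lipase and its coactivator lower, in every DNL library.

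Fatty acid oxidation as a list was close to all tested genes. Of 26 members, 8 rose (4 with scaling by library totals) and 8 fell (5 without WT replicate 1), with a median of 0.029 and 1 member past 2-fold. That is 30.8% each way, against 27.1% higher and 26.8% lower over all tested genes. CPT1A, which admits long chains to mitochondria, measured 248, 237 and 239.7 CPM in DNL and 172, 177 and 174 CPM in WT (log2 fold change 0.47, SE 0.04, adjusted p = 5.57e-07). PPARA, the receptor that drives the programme, measured 147, 142 and 145 CPM in DNL and 82.7, 83.96 and 87.2 CPM in WT (log2 fold change 0.78). The entry step and its regulator were thus higher. ACADSB, an acyl-CoA dehydrogenase of branched short chains, measured 181, 190.1 and 177 CPM in DNL and 274, 289 and 287 CPM in WT (log2 fold change -0.64). ACADVL, the very long chain dehydrogenase, measured 137, 157 and 135 CPM in DNL and 197, 185 and 194 CPM in WT (log2 fold change -0.43). Both dehydrogenases were lower in each DNL library. Ketone body genes fell more often, in 5 of 7 tested cases, with 1 rise. BDH1, which makes beta-hydroxybutyrate, measured 7.02, 6.12 and 5.82 CPM in DNL and 23.98, 27.6 and 25.6 CPM in WT (log2 fold change -2.02). SLC16A6, a carrier that lets ketone bodies out of hepatocytes, measured 23.3, 22.4 and 22.6 CPM in DNL and 88.6, 87.8 and 83.5 CPM in WT (log2 fold change -1.92). These transcripts of ketone production and export were well below the WT level. BDH2, the cytosolic enzyme and the member that rose, measured 7.76, 8.12 and 6.44 CPM in DNL and 3.15, 2.84 and 2.52 CPM in WT (log2 fold change 1.38).

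**Figure D3:**
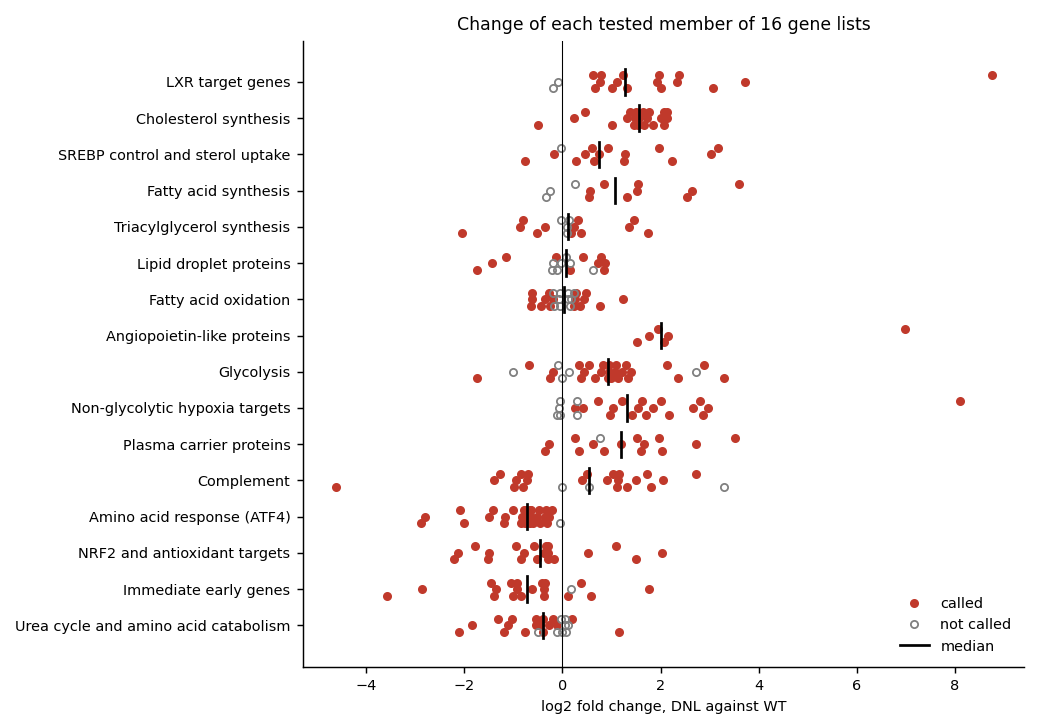
Each point is 1 tested member of a gene list, placed by its log2 fold change, DNL against WT. Filled points were called, open points were not, and the black bar is the list's median. The cholesterol list lies to the right of 0 but for PMVK, the ATF4 list lies wholly to the left, and triacylglycerol, droplet and oxidation genes straddle 0.

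Lipoprotein genes and their regulators in plasma rose. All 6 tested angiopoietin-like genes, a family of secreted proteins of which several restrain lipoprotein lipase, rose at least 2-fold, with a median of 2.01. ANGPTL8, the insulin-induced member, measured 213, 175 and 157 CPM in DNL and 59.5, 47.1 and 54.97 CPM in WT (log2 fold change 1.76, SE 0.13, adjusted p = 2.74e-06). ANGPTL4, the fasting-induced member, measured 7.11, 8.32 and 6.98 CPM in DNL and 1.38, 1.997 and 1.65 CPM in WT (log2 fold change 2.16). The insulin-induced and the fasting-induced member thus rose together.

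Of 19 apolipoproteins and assembly factors, 13 rose and 2 fell (4 with scaling by library totals or limma-voom, 1 without DNL replicate 1 or any WT replicate). APOL1, a trypanolytic component of HDL, measured 175, 172 and 161 CPM in DNL and 15.5, 14.6 and 12.8 CPM in WT (log2 fold change 3.56, SE 0.094, adjusted p = 1.3e-11). APOB, the structural protein of VLDL, measured 49985, 48554 and 48473 CPM in DNL and 30463, 30827 and 29328 CPM in WT (log2 fold change 0.70). APOA1, the main protein of HDL, measured 1424, 1464 and 1458 CPM in DNL and 556, 515 and 558 CPM in WT (log2 fold change 1.42). The structural proteins of VLDL and HDL were thus both higher. APOM, which carries sphingosine-1-phosphate, measured 8.90, 8.52 and 8.06 CPM in DNL and 27.5, 26.6 and 28.02 CPM in WT (log2 fold change -1.69). MTTP, which loads lipid onto apolipoprotein B, measured 181, 195 and 185 CPM in DNL and 167, 156 and 159 CPM in WT (log2 fold change 0.22). Its small change lost the call with scaling by library totals and without WT replicate 2 or WT replicate 3.

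Transcripts of glycolysis rose along the length of the pathway. Of 31 tested members, 22 rose, 11 at least 2-fold, and 4 fell, with a median of 0.92, or 0.87 over the 30 members with counts in both groups. ALDOC, an aldolase isoform, measured 61.9, 52.7 and 53.9 CPM in DNL and 5.87, 5.55 and 5.63 CPM in WT (log2 fold change 3.30, SE 0.09, adjusted p = 1.41e-11). ALDOA, another aldolase, measured 1341, 1358 and 1324 CPM in DNL and 591, 573 and 580.2 CPM in WT (log2 fold change 1.21). LDHA, which turns pyruvate to lactate, measured 749, 763 and 806 CPM in DNL and 288, 304 and 294 CPM in WT (log2 fold change 1.39). The rises covered early and late steps. HK2, a hexokinase, measured 421, 404 and 410.3 CPM in DNL and 322, 328 and 324 CPM in WT (log2 fold change 0.34). PFKP, the platelet phosphofructokinase, was the largest of the falls, at 6.41, 6.65 and 8.48 CPM in DNL and 25.3, 23.8 and 22.8 CPM in WT (log2 fold change -1.74). Pyruvate dehydrogenase kinases diverged. PDK1, which inactivates pyruvate dehydrogenase, measured 134, 128 and 125 CPM in DNL and 57.7, 60.7 and 63.1 CPM in WT (log2 fold change 1.09), and PDK2, its relative, 13.6, 10.8 and 12.1 CPM in DNL and 20.8, 19.4 and 19.1 CPM in WT (log2 fold change -0.69). 

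Glucose transporters changed in both directions. Of 12 tested, 6 rose and 4 fell. SLC2A3 (GLUT3), a high-affinity transporter uncommon in hepatocytes, measured 441, 425 and 419.7 CPM in DNL and 82.3, 92.3 and 85.8 CPM in WT (log2 fold change 2.31, SE 0.049, adjusted p = 1.52e-12). SLC2A1 (GLUT1), the ubiquitous transporter, measured 317, 324 and 294 CPM in DNL and 181, 171 and 188 CPM in WT (log2 fold change 0.79). SLC2A2 (GLUT2), the low-affinity transporter of liver, measured 28.5, 28.7 and 31.2 CPM in DNL and 114, 110.3 and 111 CPM in WT (log2 fold change -1.92, SE 0.063, adjusted p = 7.78e-11). SLC2A2 thus fell while SLC2A1 and SLC2A3 rose. Per kilobase of the longest transcript, SLC2A3 held 11.8% of the summed level of 10 family members in WT and 39.3% in DNL, and SLC2A2 21.0% and 3.72%. With the median transcript length the shares of SLC2A3 were 14.1% and 39.2%, and those of SLC2A2 10.3% and 1.53%. SLC2A14, a near-identical copy of SLC2A3, measured 39.6, 37.3 and 35.6 CPM in DNL and 18.1, 17.5 and 18.1 CPM in WT (log2 fold change 1.07), and reads of the pair may have been split by the estimator.

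Genes that hypoxia-inducible factors (HIF) raise were higher beyond glycolysis. Of 24 such targets, 18 rose, 14 at least 2-fold, and 0 fell (2 with scaling by library totals, 1 without DNL replicate 2), with a median of 1.32. CA9, the carbonic anhydrase used as a hypoxia marker, measured 21.6, 18.1 and 22.4 CPM in DNL and 0.0691, 0 and 0.146 CPM in WT (log2 fold change 8.11, SE 0.34, adjusted p = 8.2e-10). NDRG1, a stress-induced protein, measured 198, 178 and 176 CPM in DNL and 23.98, 23.97 and 22.4 CPM in WT (log2 fold change 2.97). BHLHE40, a transcriptional repressor, measured 466, 429.9 and 389 CPM in DNL and 70.6, 66.6 and 66.5 CPM in WT (log2 fold change 2.66). These targets spanned pH control, stress and transcription. VEGFA, the vascular growth factor, measured 386, 342 and 320.5 CPM in DNL and 182, 179 and 173 CPM in WT (log2 fold change 0.97). EGLN3, the oxygen sensor that HIF itself induces, measured 25.7, 19.3 and 21.9 CPM in DNL and 0.875, 0.406 and 0.768 CPM in WT (log2 fold change 4.996, SE 0.24, adjusted p = 2.91e-09). EGLN2, the sensor that does not respond to HIF in this way, measured 26.02, 26.7 and 22.4 CPM in DNL and 52.02, 51.02 and 51.97 CPM in WT (log2 fold change -1.05). The inducible sensor thus rose and the other fell. HIF1A, the oxygen-regulated factor subunit, measured 298, 262 and 333 CPM in DNL and 241, 227 and 247 CPM in WT (log2 fold change 0.32), with an adjusted p of 0.00416 that rose to 0.114 with scaling by library totals, and EPAS1 (HIF-2 alpha) 685, 649 and 650.2 CPM in DNL and 399, 409 and 389 CPM in WT (log2 fold change 0.73). Of the 18 hypoxia targets with a promoter in the table, 10 (55.6%) held ACGTG, against 25.9% of all 11023, and of the 28 glycolysis genes 10 (35.7%) did. The CA9, LDHA and BHLHE40 stretches above show it, and where the letters read CACGTG the motif is there on both strands. No label gives the oxygen level or the cell density at harvest.

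Insulin's repressed genes fell in part. IGFBP1, a plasma binding protein of insulin-like growth factors (IGF) and a standard readout of insulin in liver cells, measured 1801, 1792 and 1888 CPM in DNL and 5162, 4956 and 5323 CPM in WT (log2 fold change -1.49, SE 0.055, adjusted p = 2.29e-10). G6PC1, the enzyme that releases free glucose from hepatocytes, measured 34.3, 31.5 and 36.98 CPM in DNL and 77.9, 81.2 and 78.6 CPM in WT (log2 fold change -1.21). DEPP1, a FOXO target induced by fasting, measured 31.4, 29.7 and 37.2 CPM in DNL and 450.01, 461 and 437 CPM in WT (log2 fold change -3.77, SE 0.099, adjusted p = 2.55e-10). All DNL libraries were lower for these 3. PCK1, the cytosolic PEPCK that insulin also represses, was higher at 9.76, 7.19 and 8.14 CPM in DNL and 1.40, 1.66 and 1.24 CPM in WT (log2 fold change 2.54, SE 0.48, adjusted p = 0.00125), from a low level. PCK1 thus moved against IGFBP1, G6PC1 and DEPP1. PCK2, its mitochondrial counterpart, measured 149, 152 and 154 CPM in DNL and 366, 361 and 370 CPM in WT (log2 fold change -1.27). Of 12 gluconeogenesis genes, 2 rose and 6 fell, and of 20 FOXO factors and targets 6 rose and 9 fell. Sestrins, stress proteins that restrain mTORC1, divided: SESN2, which ATF4 drives, measured 25.1, 28.3 and 30.5 CPM in DNL and 113, 109.7 and 114 CPM in WT (log2 fold change -2.01) and SESN3, which FOXO drives, 28.6, 27.3 and 28.5 CPM in DNL and 2.53, 1.86 and 2.56 CPM in WT (log2 fold change 3.59, SE 0.21, adjusted p = 7.06e-08).

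Of 30 genes of insulin receptor signalling, 9 rose and 13 fell. IRS1, the docking protein, measured 120.5, 112 and 123 CPM in DNL and 235, 233 and 238 CPM in WT (log2 fold change -0.99, SE 0.045, adjusted p = 1.45e-09). SHC1, the adaptor to Ras, measured 195, 198 and 193 CPM in DNL and 321, 317 and 323 CPM in WT (log2 fold change -0.71). Both link the receptor to kinases and were lower. PIK3R3, a regulatory subunit of PI3-kinase, measured 13.7, 16.3 and 15.7 CPM in DNL and 1.63, 2.40 and 1.98 CPM in WT (log2 fold change 2.93) and PIK3R1, another, 76.1, 70.3 and 67.3 CPM in DNL and 44.5, 43.1 and 45.6 CPM in WT (log2 fold change 0.68). INSR, the receptor, measured 263, 267 and 262 CPM in DNL and 288, 291 and 290.4 CPM in WT (log2 fold change -0.13). IRS1, SHC1 and INSR were thus lower in all DNL libraries and the 2 regulatory subunits higher. Of 10 genes of the IGF axis, 4 rose, 1 fell (2 in the fit of the 6 samples, with limma-voom and without OA replicate 3) and 5 were not called: IGFBP3, the main carrier of IGF in plasma, measured 187, 156 and 157 CPM in DNL and 15.9, 15.6 and 13.3 CPM in WT (log2 fold change 3.48, SE 0.36, adjusted p = 0.000185), and IGF2, the fetal growth factor, 9742, 8898 and 8238 CPM in DNL and 3560.2, 3261 and 3303 CPM in WT (log2 fold change 1.41, SE 0.068, adjusted p = 1.01e-08).

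Glycogen genes rose more often than they fell, in 12 against 3 of 21 cases (1 fall without DNL replicate 1, DNL replicate 2 or WT replicate 2). PPP1R3C, which brings protein phosphatase 1 to glycogen, measured 87.3, 83.03 and 89.4 CPM in DNL and 9.05, 7.08 and 8.56 CPM in WT (log2 fold change 3.39, SE 0.13, adjusted p = 6.83e-10). UGP2, which makes UDP-glucose, measured 142, 139 and 142 CPM in DNL and 92.9, 89.4 and 89.8 CPM in WT (log2 fold change 0.64). PYGB, the brain-type phosphorylase, measured 229, 217 and 219 CPM in DNL and 345, 338 and 344 CPM in WT (log2 fold change -0.63). MLXIPL, which encodes the glucose sensor ChREBP, measured 176, 184 and 179.8 CPM in DNL and 258, 267 and 283 CPM in WT (log2 fold change -0.58), and its target PKLR, the liver pyruvate kinase, 23.9, 24.02 and 23.4 CPM in DNL and 11.6, 10.6 and 11.8 CPM in WT (log2 fold change 1.07). The sensor's transcript was thus lower while PKLR was higher. TXNIP, another ChREBP target, was at 222, 221 and 242 CPM in DNL and 244, 244 and 242 CPM in WT. TXNIP was not called (adjusted p = 0.228), but was lower with scaling by library totals (adjusted p = 0.00564).

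**Figure D4:**
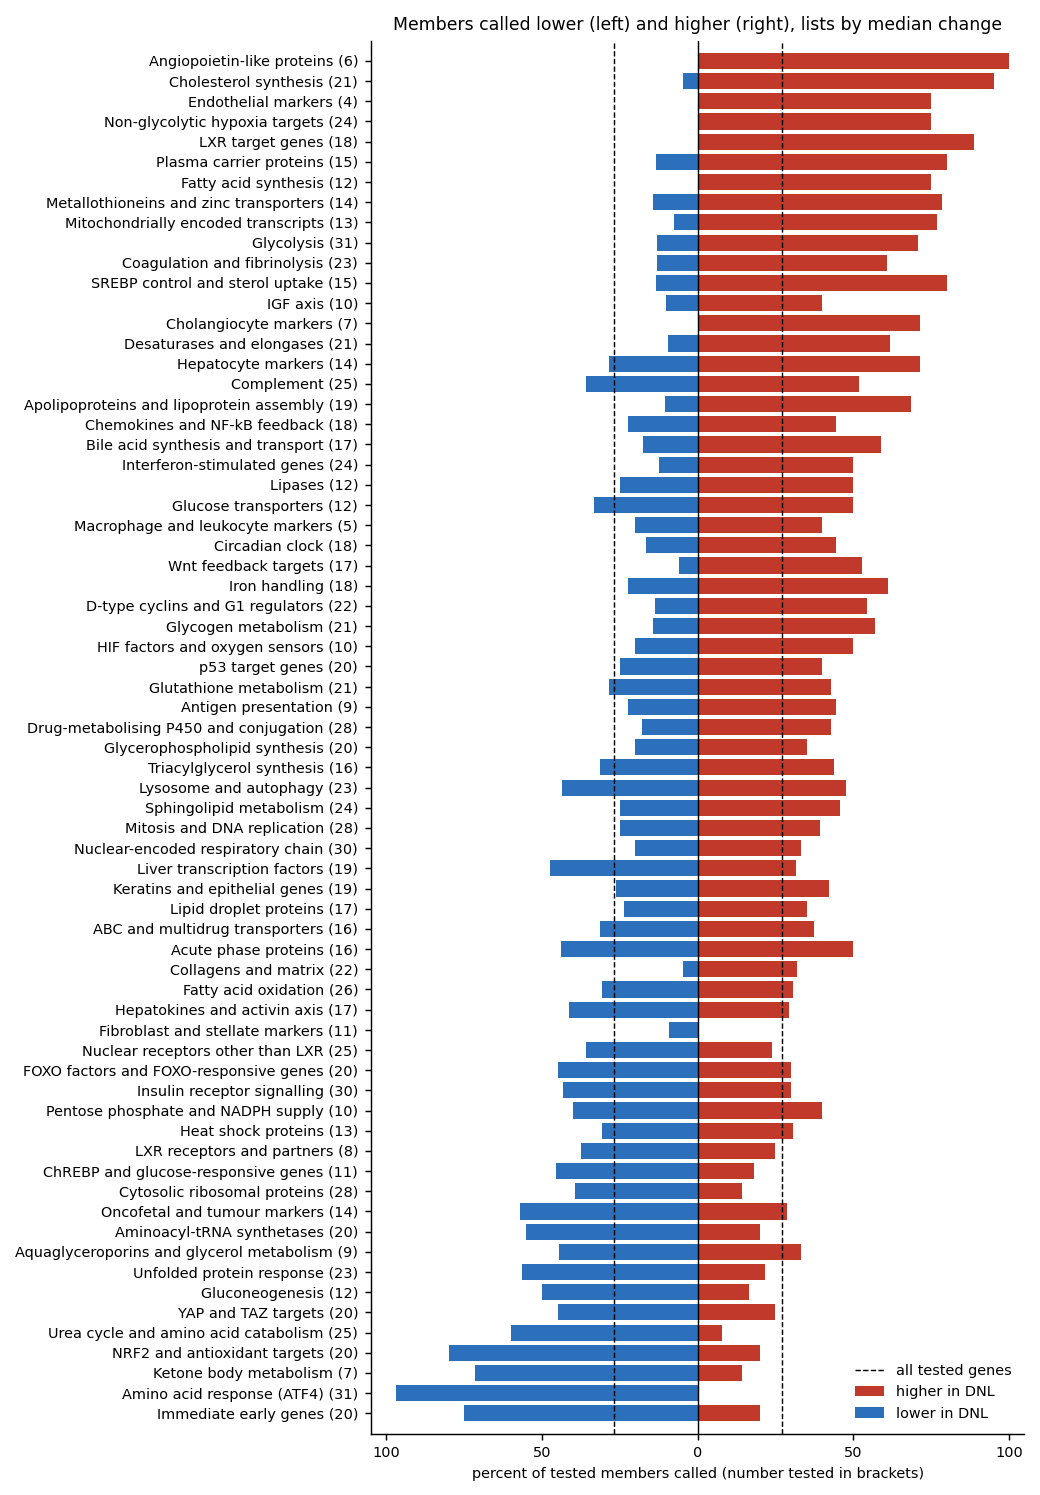
Bars give, for each gene list, the percent of tested members called higher in DNL (red, to the right) and lower (blue, to the left), with the number tested in brackets and lists ordered by median change. The dashed lines mark the shares over all tested genes, 27.1% higher and 26.8% lower. Cholesterol synthesis, LXR targets and hypoxia targets lie in the upper part, and the ATF4, NRF2 and immediate early lists in the lower part.

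The amino acid response fell as a block. ATF4 is the transcription factor made when amino acids run short or the endoplasmic reticulum is stressed, and it drives amino acid import and synthesis. Of 31 tested members, 0 rose, 30 fell and 9 fell at least 2-fold, with a median of -0.73. CTH, which makes cysteine, measured 25.01, 24.5 and 23.7 CPM in DNL and 107, 105.3 and 100.3 CPM in WT (log2 fold change -2.09, SE 0.056, adjusted p = 1.24e-11). SLC1A5, a glutamine transporter, measured 322, 338 and 341 CPM in DNL and 679.9, 649 and 686 CPM in WT (log2 fold change -1.01). Both were lower in every DNL library. ATF4 itself measured 396, 395 and 394 CPM in DNL and 657, 624 and 614 CPM in WT (log2 fold change -0.68) and TRIB3, its feedback inhibitor, 408, 407 and 429.8 CPM in DNL and 688, 696 and 742 CPM in WT (log2 fold change -0.77). FGF21, a hormone ATF4 induces, was under 1 CPM in every library, at 0.0924, 0.0665 and 0.125 CPM in DNL and 0.806, 0.779 and 0.658 CPM in WT (log2 fold change -2.88). No named member had overlapping groups. RPMI and DMEM differ in amino acid content, and the part of the medium was not tested. Transfer RNA synthetases, many of them ATF4 targets, fell in 11 of 20 cases and rose in 4 (1 with scaling by library totals or without WT replicate 3, 2 without DNL replicate 3 or WT replicate 2). WARS1, the tryptophan enzyme, measured 124, 107 and 115 CPM in DNL and 272, 267 and 252 CPM in WT (log2 fold change -1.18) and QARS1, the glutamine enzyme, 221, 216 and 213 CPM in DNL and 165, 165 and 165 CPM in WT (log2 fold change 0.39).

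Antioxidant genes fell with few exceptions. Of 20 NRF2 targets and regulators, 16 fell and 4 rose, with a median of -0.45. GCLC, the limiting enzyme of glutathione synthesis, measured 123, 119.6 and 118 CPM in DNL and 431, 408 and 408 CPM in WT (log2 fold change -1.79, SE 0.047, adjusted p = 1.06e-11). AKR1C1, an aldo-keto reductase, measured 73.3, 76.3 and 81.2 CPM in DNL and 339, 337 and 333 CPM in WT (log2 fold change -2.13) and AKR1C2, a near-identical copy between which reads may be split, 28.5, 23.5 and 26.3 CPM in DNL and 128, 115 and 121 CPM in WT (log2 fold change -2.21). These 3 genes were lower in every DNL library. NQO1, the quinone reductase, was among the rises at 691, 690.1 and 680.4 CPM in DNL and 491, 473 and 480.5 CPM in WT (log2 fold change 0.51), as was EPHX1, an epoxide hydrolase, at 178, 179.8 and 167 CPM in DNL and 82.9, 80.7 and 83.1 CPM in WT (log2 fold change 1.09). GPX2, a glutathione peroxidase of the glutathione list, measured 336, 338 and 314 CPM in DNL and 139, 125 and 127 CPM in WT (log2 fold change 1.33). NQO1 and GPX2 were higher in every DNL library while the glutathione-synthesis enzymes GCLC and GCLM (39.8, 40.5 and 37.1 against 67.5, 71.8 and 71.03 CPM) were lower.

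In the endoplasmic reticulum, 13 of 23 genes of the unfolded protein response fell and 5 rose (3 with scaling by library totals). HSPA5, the chaperone BiP, measured 809.9, 835 and 795 CPM in DNL and 1072, 1045 and 1031 CPM in WT (log2 fold change -0.37). DNAJB9, its co-chaperone, measured 39.4, 39.9 and 40.8 CPM in DNL and 88.3, 87.7 and 84.2 CPM in WT (log2 fold change -1.12, SE 0.046, adjusted p = 6.88e-10). The main chaperone and its partner were thus lower. CALR, a lectin chaperone, was the largest rise of the list at 1052, 1056 and 989 CPM in DNL and 464, 446 and 435 CPM in WT (log2 fold change 1.20, SE 0.04, adjusted p = 7.82e-11). XBP1, a transcription factor of this response, measured 374, 372 and 397 CPM in DNL and 282, 277 and 281 CPM in WT (log2 fold change 0.44). HSPA9, the mitochondrial counterpart of BiP, fell too, at 196, 205 and 209 CPM in DNL and 402, 399 and 369.6 CPM in WT (log2 fold change -0.94).

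Metallothioneins, small zinc and copper binding proteins, rose together with the zinc exporter. Of 14 tested genes of this list 11 rose and 2 fell, and the rises took in every metallothionein tested, MT1A, MT1E, MT1F, MT1G, MT1M, MT1X and MT2A. MT1X measured 15.2, 11.7 and 13.1 CPM in DNL and 4.19, 3.76 and 3.80 CPM in WT (log2 fold change 1.77) and MT2A 159, 126 and 141 CPM in DNL and 76.2, 68.1 and 68.9 CPM in WT (log2 fold change 1.001). SLC30A1, which exports zinc and is driven by the same metal sensor, measured 286, 289 and 286 CPM in DNL and 138, 132 and 133 CPM in WT (log2 fold change 1.09, SE 0.036, adjusted p = 8.64e-11). SLC39A14, a zinc and iron importer, measured 569, 572 and 616 CPM in DNL and 1101, 1117 and 1107 CPM in WT (log2 fold change -0.92) and SLC39A5, another importer, 25.2, 28.3 and 31.1 CPM in DNL and 57.2, 55.5 and 60.4 CPM in WT (log2 fold change -1.03). Of the other importers tested, SLC39A10 rose and SLC39A4 was not called. Metallothionein genes are near-identical copies, so reads may be split between them.

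Iron genes moved with them in part. Of 18, 11 rose and 4 fell. TF, the plasma iron carrier, measured 6428, 6272 and 6136 CPM in DNL and 561, 532 and 539.6 CPM in WT (log2 fold change 3.53, SE 0.072, adjusted p = 6.45e-12). TFRC, the receptor that takes it up, measured 787, 775 and 809 CPM in DNL and 278, 259.9 and 269.8 CPM in WT (log2 fold change 1.55, SE 0.046, adjusted p = 2.73e-11). Carrier and receptor thus rose together. TFR2, the sensing receptor, measured 45.5, 55.95 and 52.4 CPM in DNL and 81.1, 76.9 and 78.1 CPM in WT (log2 fold change -0.62). CP, the ferroxidase ceruloplasmin, measured 906, 873 and 893 CPM in DNL and 143, 131 and 131 CPM in WT (log2 fold change 2.72, SE 0.046, adjusted p = 3.61e-13). HAMP, the hormone hepcidin that blocks iron export, had 2 counts over all DNL libraries, at 0.0616, 0 and 0 CPM against 0.921, 1.52 and 1.43 CPM in WT. The ratio of its summed counts, WT to DNL, had an exact 95% interval of 11.99 to 369 for counting error only.

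Secreted liver proteins rose widely. Of 15 plasma carriers, 12 rose and 2 fell, with a median of 1.19. SERPINA1, alpha-1 antitrypsin, measured 8418, 8201 and 7798 CPM in DNL and 2171, 2045 and 1999 CPM in WT (log2 fold change 1.97, SE 0.047, adjusted p = 4.48e-12). ALB, albumin, measured 7150.3, 6930.4 and 7587 CPM in DNL and 6128, 5982 and 5934 CPM in WT (log2 fold change 0.26). The small change of ALB lost its call with scaling by library totals (log2 fold change 0.099, adjusted p = 0.171). Antitrypsin thus rose far more than albumin. RBP4, the retinol carrier, measured 606, 569 and 545 CPM in DNL and 711, 683 and 703 CPM in WT (log2 fold change -0.29) and SELENOP, the selenium carrier, 1158, 1119 and 1235 CPM in DNL and 1515, 1509 and 1452 CPM in WT (log2 fold change -0.35), the 2 members that fell. Of 23 coagulation and fibrinolysis genes, 14 rose and 3 fell (5 with scaling by library totals). PLG, plasminogen, measured 48.01, 43.2 and 44.01 CPM in DNL and 2.76, 2.57 and 1.68 CPM in WT (log2 fold change 4.25, SE 0.17, adjusted p = 7.83e-10). F5, factor V, measured 575, 556 and 543 CPM in DNL and 247, 252 and 242 CPM in WT (log2 fold change 1.18). PROC, the anticoagulant protein C, measured 89.9, 95.1 and 84.9 CPM in DNL and 136, 133 and 136 CPM in WT (log2 fold change -0.58) and SERPINC1, antithrombin, 113, 104.9 and 106 CPM in DNL and 149, 146 and 145 CPM in WT (log2 fold change -0.44). PROS1 and SERPIND1, which also restrain clotting, were among the rises.

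Complement genes changed in both directions. Of 25 tested genes, 13 rose and 9 fell. C3, the central component, measured 8567, 8375 and 7965 CPM in DNL and 3807, 3737 and 3633 CPM in WT (log2 fold change 1.16, SE 0.04, adjusted p = 1.2e-10). C5, which starts the lytic pathway, measured 324, 326 and 327 CPM in DNL and 583, 581 and 546 CPM in WT (log2 fold change -0.81, SE 0.037, adjusted p = 1.64e-09). CD46 and CD59, membrane regulators that protect cells, measured 431, 422 and 443 CPM in DNL and 203, 193 and 196 CPM in WT (log2 fold change 1.13) and 329, 331 and 349 CPM in DNL and 169, 164 and 163 CPM in WT (log2 fold change 1.02). CD55, the third of these regulators, went the other way at 25.9, 27.9 and 24.9 CPM in DNL and 72.03, 64.7 and 68.8 CPM in WT (log2 fold change -1.39). C5AR1, the receptor of the C5a fragment, measured 2.80, 3.33 and 2.58 CPM in DNL and 70.8, 72.3 and 68.7 CPM in WT (log2 fold change -4.63, SE 0.11, adjusted p = 4.48e-12) and was among the largest falls.

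Acute phase genes also split, with 8 of 16 higher and 7 lower. SERPINA3, antichymotrypsin, measured 2357, 2437 and 2414 CPM in DNL and 719.5, 695 and 683 CPM in WT (log2 fold change 1.78). HP, haptoglobin, measured 85.2, 86.1 and 78.1 CPM in DNL and 173, 156 and 164 CPM in WT (log2 fold change -0.98). IL6R, the interleukin-6 receptor subunit, measured 32.8, 30.01 and 29.6 CPM in DNL and 187, 187 and 191 CPM in WT (log2 fold change -2.61, SE 0.052, adjusted p = 1.03e-12) and SOCS3, the feedback inhibitor that interleukin-6 induces, 2.31, 3.13 and 3.28 CPM in DNL and 15.4, 16.6 and 14.96 CPM in WT (log2 fold change -2.44). Of the other genes of this signal, STAT3 rose and IL6ST was not called. CXCL8, a neutrophil chemokine, measured 64.1, 60.8 and 66.8 CPM in DNL and 9.76, 9.85 and 10.9 CPM in WT (log2 fold change 2.65). CXCL8 was higher in every DNL library.

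Transcripts of amino acid breakdown and nitrogen disposal fell more often than they rose. Of 25 tested genes, 15 fell and 2 rose (1 with the replicate block or without DNL replicate 3, OA replicate 2, WT replicate 1 or WT replicate 3). TAT, the tyrosine aminotransferase that glucocorticoids induce, measured 7.54, 7.65 and 8.06 CPM in DNL and 32.5, 33.6 and 35.2 CPM in WT (log2 fold change -2.12, SE 0.11, adjusted p = 6.27e-09). GPT2, an alanine aminotransferase, measured 273, 268 and 263 CPM in DNL and 456, 445 and 454 CPM in WT (log2 fold change -0.76). HAL, the histidine ammonia-lyase, measured 2.86, 3.79 and 3.53 CPM in DNL and 32.9, 28.8 and 31.8 CPM in WT (log2 fold change -3.22, SE 0.16, adjusted p = 4.16e-09). TAT and GPT2 were lower in every DNL library. HAL is not among the 25 genes and was named as one of the largest falls, by a rule that required separate groups. CPS1, the first enzyme of the urea cycle, was at 67.9, 67.5 and 74.2 CPM in DNL and 66.2, 68.9 and 63.2 CPM in WT. Its groups overlapped and it was not called (adjusted p = 0.324).

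Liver transcription factors fell more often than they rose, in 9 against 6 of 19 cases. CEBPA, which maintains hepatocyte identity, measured 46.4, 55.1 and 47 CPM in DNL and 88.1, 79.5 and 89.98 CPM in WT (log2 fold change -0.80). HHEX, an early liver factor, measured 135, 141 and 139.9 CPM in DNL and 52.7, 50.3 and 52.6 CPM in WT (log2 fold change 1.42, SE 0.081, adjusted p = 1.22e-08). HNF4A, the main hepatocyte factor, measured 465, 467 and 509.5 CPM in DNL and 553, 569.7 and 579.8 CPM in WT (log2 fold change -0.24). Its small change lost the call without DNL replicate 1 or DNL replicate 2. Among the other nuclear receptors, NR0B2 (SHP), a repressor of bile acid synthesis, measured 138, 143 and 149 CPM in DNL and 77.9, 78.3 and 72.9 CPM in WT (log2 fold change 0.91) and PPARD 45.9, 48.3 and 43.97 CPM in DNL and 112, 109.6 and 107 CPM in WT (log2 fold change -1.25). ESRRA, which drives mitochondrial genes, measured 41.7, 44.4 and 46.2 CPM in DNL and 111, 111 and 120.4 CPM in WT (log2 fold change -1.37), and its coactivator PPARGC1A 75.3, 72.9 and 75.4 CPM in DNL and 119.5, 127 and 128 CPM in WT (log2 fold change -0.74). Both act on mitochondrial genes and were lower. CYP7A1, the rate-limiting enzyme of bile acid synthesis, was at 2.06, 2.46 and 2.29 CPM in DNL and 2.72, 1.997 and 2.05 CPM in WT and was not called (adjusted p = 1). SLC51A, a subunit of the basolateral bile acid exporter, measured 35.5, 41.6 and 39.5 CPM in DNL and 1.01, 1.59 and 0.988 CPM in WT (log2 fold change 5.03, SE 0.17, adjusted p = 1.22e-10). UGT1A1, which conjugates bilirubin, measured 38.2, 46.4 and 41.2 CPM in DNL and 6.58, 7.18 and 5.12 CPM in WT (log2 fold change 2.73).

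CCND2 had the largest fold change of all called genes. CCND2, cyclin D2, a partner of CDK4 and CDK6 in G1 (chromosome 12, 4273772 to 4305350 on GRCh38), had 167, 187 and 173 CPM in DNL. The 3 WT libraries held 1 count in all, and the ratio of summed counts had an exact 95% interval of 3115 to 685620 for counting error only. CCND1, cyclin D1, measured 819, 826 and 773 CPM in DNL and 450.3, 457 and 447 CPM in WT (log2 fold change 0.84, SE 0.05, adjusted p = 2.14e-08). Per kilobase of the longest transcript, CCND2 made up 12.4% of the D-type cyclins in DNL and CCND1 86.0%, or 18% and 81.2% with the median transcript length. CDKN1B, the inhibitor p27 that insulin and growth factors lower, measured 51.7, 50.2 and 49.4 CPM in DNL and 91.2, 91.1 and 90.6 CPM in WT (log2 fold change -0.85) and CDKN1A, the inhibitor p21, 268, 275 and 311 CPM in DNL and 158, 165 and 159.7 CPM in WT (log2 fold change 0.82). Of 28 genes of replication and mitosis 11 rose and 7 fell (11 with scaling by library totals). PCNA, the replication clamp, measured 139.8, 137 and 136 CPM in DNL and 71.7, 70.8 and 68.8 CPM in WT (log2 fold change 0.97), MKI67 104.7, 100.5 and 97.7 CPM in DNL and 72.3, 67.8 and 64.5 CPM in WT (log2 fold change 0.56) and PLK1, a mitotic kinase, 39.8, 38.4 and 40.5 CPM in DNL and 81.3, 74.8 and 74.1 CPM in WT (log2 fold change -0.95). PCNA and MKI67 were thus higher and the mitotic kinases PLK1 and AURKA (41.8, 42.1 and 44.3 against 64.7, 66.5 and 62.2 CPM) lower. The list as a whole did not divide into replication genes higher and mitotic genes lower. KIF11, TOP2A and CCNA2 also rose, CDC6, of replication, fell, and the kinases AURKB and CDK1 were not called.

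Genes that serum and stress induce within minutes were mostly lower. Of 20 immediate early genes, 15 fell and 4 rose. FOSB, a component of AP-1, measured 2.59, 1.996 and 1.75 CPM in DNL and 15.1, 15.4 and 16.3 CPM in WT (log2 fold change -2.87). EGR1, a zinc finger factor, measured 233, 216 and 199 CPM in DNL and 424, 413 and 392.1 CPM in WT (log2 fold change -0.92). JUND, the family member that is expressed constantly, measured 171, 177 and 159 CPM in DNL and 132, 122 and 138 CPM in WT (log2 fold change 0.37) and was higher in every DNL library. The other rises were KLF4, DUSP5 and DUSP6. The labels do not give the time since the last medium change.

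Of the other genes named for having the largest rises, PPT2, a lysosomal thioesterase, had no counts in WT and 7.24, 21.2 and 8.64 CPM in DNL, at least 356-fold higher against a floor of 3 counts over the WT group. LCN15, a lipocalin, had no counts in WT and 8.16, 5.26 and 5.24 CPM in DNL, at least 220-fold higher on the same floor. Both bounds cover counting error only, PPT2 was uneven, with DNL replicate 2 more than 2-fold above the others, and PPT2 overlaps other transcripts between which the estimator may split reads. PANK4, a pantothenate kinase-like phosphatase, measured 17.4, 16.7 and 17.6 CPM in DNL and 0, 0.203 and 0.219 CPM in WT (adjusted p = 0.00982), and was not called with limma-voom (adjusted p = 0.131). TFF1, a secreted trefoil peptide, measured 16.2, 17.6 and 13.7 CPM in DNL and 0.460, 0.271 and 0.146 CPM in WT (log2 fold change 5.65). SLC26A9, a chloride channel of epithelia, measured 15.5, 16.03 and 21.2 CPM in DNL and 0.437, 0.406 and 0.293 CPM in WT (log2 fold change 5.49). IL17B, a cytokine, measured 9.42, 7.32 and 7.27 CPM in DNL and 0.0921, 0.0677 and 0 CPM in WT (log2 fold change 6.97) and SSTR3, a somatostatin receptor, 5.45, 6.39 and 5.44 CPM in DNL and 0.138, 0.0339 and 0 CPM in WT (log2 fold change 6.31). These genes were near 0 in WT. Among the largest falls, KLHDC7B measured 7.88, 10.4 and 7.31 CPM in DNL and 149, 136 and 152 CPM in WT (log2 fold change -4.13). ACTA1, skeletal muscle actin, measured 0.893, 1.06 and 0.416 CPM in DNL and 10.9, 10.9 and 11.52 CPM in WT (log2 fold change -3.84) and FAM43A 3.39, 4.59 and 3.74 CPM in DNL and 43.2, 43.5 and 41.8 CPM in WT (log2 fold change -3.48). SLC17A2, a phosphate transporter family member, measured 1.91, 1.60 and 2.91 CPM in DNL and 20.2, 21.6 and 20.1 CPM in WT (log2 fold change -3.25) and PDGFRB, a growth factor receptor of mesenchymal cells, 0.893, 1.13 and 1.08 CPM in DNL and 9.46, 11.6 and 8.71 CPM in WT (log2 fold change -3.28). SH2D5 measured 2.25, 1.86 and 1.12 CPM in DNL and 20.1, 16.7 and 16.8 CPM in WT (log2 fold change -3.34) and PDIA2, a pancreatic disulphide isomerase, 0.493, 0.798 and 0.499 CPM in DNL and 5.202, 5.08 and 5.78 CPM in WT (log2 fold change -3.21). The rule that named these genes required groups that do not overlap, so their separation is no finding.

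Mitochondrially encoded genes rose, 10 of 13 (6 without WT replicate 2 or WT replicate 3), with 1 fall. MT-CO1, a subunit of cytochrome oxidase, measured 34695, 32610 and 32429 CPM in DNL and 14499, 14192 and 12880 CPM in WT (log2 fold change 1.26, SE 0.048, adjusted p = 2.86e-10) and MT-ND6, the only messenger on the other strand of the mitochondrial genome, 89.4, 92.6 and 72.2 CPM in DNL and 187, 186 and 184 CPM in WT (log2 fold change -1.14, SE 0.075, adjusted p = 9.05e-08). MT-ND6 thus moved against MT-CO1, while MT-ND1 and MT-ND2 were not called. MT-CO3, another oxidase subunit, measured 5937, 5332 and 4408 CPM in DNL and 3503, 2856 and 2638 CPM in WT (log2 fold change 0.80), with DNL replicate 3 the lowest of its group and WT replicate 1 the highest. Of 30 nuclear-encoded respiratory chain genes 10 rose (6 with scaling by library totals) and 6 fell (10 with that scaling, 3 without DNL replicate 2 or WT replicate 1). Of 23 lysosome and autophagy genes 11 rose and 10 fell: LAMP2, a membrane protein, measured 312, 328 and 333 CPM in DNL and 157, 166 and 156 CPM in WT (log2 fold change 1.02) and CTSA, a protective protein of the lysosome, 311, 302 and 311 CPM in DNL and 162, 151 and 154 CPM in WT (log2 fold change 0.98), while MAP1LC3B, the autophagosome protein LC3, measured 228, 217 and 230.1 CPM in DNL and 413, 419 and 404 CPM in WT (log2 fold change -0.87) and ULK1, the kinase that starts autophagy, 51.2, 50.2 and 53.1 CPM in DNL and 99.1, 98.1 and 94.8 CPM in WT (log2 fold change -0.92).

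The labelled cell type was checked against markers. All 14 hepatocyte markers passed the filter, 10 were higher and 4 lower in DNL (2 lower without DNL replicate 2), and their summed level was 77297 to 79344 CPM in DNL and 43236 to 44848 CPM in WT. CYP3A4, which mature hepatocytes express strongly, was under 1 CPM in every library and counts among the 10. Its call was lost with DESeq2 (adjusted p = 0.107), scaling by library totals, no filter and a replicate block. It was also lost when any DNL or WT library, OA replicate 1 or OA replicate 2 was left out. Of 13 macrophage and leukocyte markers 5 were tested, 2 rose and 1 fell, and the summed level was 1620 to 1714 CPM in DNL and 981 to 991 CPM in WT, nearly all of it LYZ, lysozyme, at 1579, 1670.1 and 1662 CPM in DNL and 936, 945 and 940.0 CPM in WT (log2 fold change 0.80). CD163, CSF1R, MARCO and CD5L were listed at 0 in DNL and WT, and no untested member passed 0.266 CPM in any library. Of 11 endothelial markers 4 were tested, 3 rose and 0 fell, the sum was 7.81 to 8.52 against 2.30 to 2.999 CPM, and KDR, STAB2, CLEC4G and ERG were listed at 0 in DNL and WT. Of 9 cholangiocyte markers 7 were tested, 6 of them with counts in both DNL and WT, and 5 rose. SOX9 was among the rises, at 689.8, 662 and 633 CPM in DNL and 328, 320.2 and 311 CPM in WT (log2 fold change 1.05). The sum of the 9 markers was 995 to 1099 against 525 to 545 CPM, and KRT7 and CFTR were listed at 0 in DNL and WT. Of 12 fibroblast markers 11 were tested, 0 rose (1 without OA replicate 3 or all OA libraries) and 1, PDGFRB, fell, and COL1A2, POSTN and LUM were listed at 0 in DNL and WT. Only 9 of the 11 had counts in both DNL and WT. The count filter used all 9 libraries, so COL1A2 passed it only through OA and could not be called between DNL and WT. The cholangiocyte sum was about 2-fold higher in DNL, and its part in the other changes was not tested. Other members of these lists were not near 0: CD14 measured 5.67, 7.52 and 5.57 CPM in DNL and 2.90, 2.20 and 3.22 CPM in WT (log2 fold change 1.16) and CD68 32.8, 33.7 and 29.9 CPM in DNL and 39.4, 41.6 and 40.9 CPM in WT (log2 fold change -0.34). In these bulk samples fewer cells of a kind and less RNA per cell cannot be told apart.

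Several of these differences set DNL apart from the oleic acid treatment as well. In the direct test of DNL against OA, 8557 of the 13636 genes were called (62.8%), 4349 higher and 4208 lower in DNL, and without OA replicate 3 the counts were 4212 and 4130. ABCA1 measured 172, 143 and 138 CPM in OA, so that DNL was higher (log2 fold change 2.77, SE 0.072, adjusted p = 2.4e-11, and 2.72 without OA replicate 3). SREBF1 measured 58.1, 55.2 and 57.8 CPM in OA (DNL against OA 2.45, adjusted p = 4.61e-13, and 2.45 without OA replicate 3). SCD measured 1650.2, 1387 and 1431 CPM in OA (DNL against OA 3.05, adjusted p = 6.61e-13, and 3.02 without OA replicate 3). These 3 genes were thus higher in DNL than in either other group. PLIN2 went the other way, at 3216, 3433 and 3378 CPM in OA (DNL against OA -2.23, adjusted p = 2.39e-13, and -2.22 without OA replicate 3).

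HMGCS1, of cholesterol synthesis, was at 306, 277 and 289 CPM in OA (DNL against OA 0.71, SE 0.045, adjusted p = 2e-08, and 0.71 without OA replicate 3). CA9 and EGLN3 were low in OA too, at 0.395, 0.329 and 0.356 CPM and 0.0790, 0.0329 and 0 CPM, and DNL was higher (DNL against OA 5.86 and 8.99, and 5.87 and 8.77 without OA replicate 3). ASNS, the asparagine synthetase and an ATF4 target, measured 208, 216 and 213 CPM in DNL, 395, 374 and 381 CPM in WT and 197, 204 and 214 CPM in OA (DNL against OA 0.051, SE 0.042, adjusted p = 0.314, and 0.081 with adjusted p = 0.134 without OA replicate 3). ASNS does not stand for its list. Summed over the 31 genes of the ATF4 list, the level was 7786 to 8068 CPM in DNL, 10706 to 11389 CPM in OA and 12464 to 12524 CPM in WT. ATF4 itself was higher in OA than in DNL, at 606, 722 and 703 CPM (DNL against OA -0.78, adjusted p = 8.95e-08, and -0.75 without OA replicate 3). DNL and OA shared the DMEM medium but differed in compounds and in time, so that the sources of these differences cannot be told apart.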

How the data were processed

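Messenger RNA of 9 HepG2 samples, 3 each of DNL, WT and OA, was sequenced. The deposited table holds estimated counts per gene, made by the authors with kallisto 0.48.0, and FastQC 0.11.9 is named beside it, per the submitters' processing notes. Its transcript annotation and strand setting are not given in these sources. Groups came from sample titles and treatments from each sample's own label, since a general protocol field gives the DNL recipe for all samples. Gene positions came from GENCODE 29 (GRCh38), matched by gene identifier for 19272 of 19317 genes, and promoters from RefSeq (GRCh38.p14).

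Counts were rounded and fitted with edgeR 4.0.16 in R 4.3.3 (TMM, filterByExpr, robust quasi-likelihood test) over all 9 libraries, which share 1 estimate of the spread, with Benjamini-Hochberg adjustment. Members and lists were chosen with earlier results of these data known. Named genes are the 12 largest rises and 12 largest falls of at least 5 CPM with separate groups, a set of genes of known role, and, per list, up to 3 called members each way by smallest adjusted p and any uncalled members, and a few of these genes are not reported here. Antisense and overlapping genes, and near-identical copies, may share reads. Where a group has no counts, the fold is a bound against 3 counts over the group. Intervals of count ratios are exact, at the 95% level, and cover counting error only. Shares of a gene family are per kilobase of transcript. CPM is not scaled by length and does not compare levels between genes. The fit was checked on counts with known answers. Libraries of a group differed by more than sampling noise (chi-square per degree of freedom 5.29 to 15.8), so each counted as 1 sample. Alternatives were relative log expression size factors, library totals, other count filters, DESeq2 1.42.0, limma-voom (limma 3.58.1), the 6 samples alone, a replicate block and each library left out. Fits of DNL against OA without OA libraries were added after seeing the data.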

Additional observations from a re-analysis of the deposited data

How the results depend on the processing

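The counts of called genes stayed within 1.5 times of the reported 3692 higher and 3650 lower under each alternative run. They ran from 2505 higher and 5265 lower with scaling by library totals to 3979 higher and 3791 lower in the fit of the 6 samples alone, and from 3258 to 3869 higher and 3147 to 3807 lower when 1 library was left out. Scaling by library totals reversed 2 genes, AFP (log2 fold change -0.15, adjusted p = 0.0145) and NCOA2 (-0.018, adjusted p = 0.785), because it lowers every change. Of 391 named genes, 33 gained or lost a call under at least 1 alternative, and of 136 list counts 42 moved by more than 1.5 times, 24 of them under an alternative other than library totals, and those of the lists described are given beside the counts. Same-numbered DNL and WT samples deviated together only weakly (correlations 0.045, 0.014 and 0.036). These values still lay above those of all other DNL and WT pairs, which ran from -0.044 to 0.0048. Whether the numbers pair the samples cannot be told from this, and the main fit did not pair them. With a replicate block, 3644 genes were higher and 3601 lower. Shares of a gene family depend on the transcript length, and 53 of 60 moved with the median length. Depth limits genes near 3 counts, 0.0924 to 0.2 CPM in DNL, where a difference was not detectable.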

Other observations

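Wnt feedback genes rose more often than they fell in DNL. HepG2 carries a stabilising deletion in beta-catenin, and these genes are active in the control. Of 17 tested, 9 rose and 1 fell (4 with scaling by library totals, 0 to 2 under other alternatives), against 27.1% and 26.8% of all tested genes. TNFRSF19, a receptor of the tumour necrosis factor family, measured 229.7, 218 and 245 CPM in DNL and 42.2, 41.5 and 39.5 CPM in WT (log2 fold change 2.49), RNF43, a ubiquitin ligase that removes Wnt receptors, 247, 262 and 246 CPM in DNL and 141, 139.9 and 141 CPM in WT (log2 fold change 0.84) and NKD1 923, 919.7 and 942 CPM in DNL and 619.7, 649 and 625 CPM in WT (log2 fold change 0.56). AXIN2, the usual readout of the pathway, was at 134, 138 and 129 CPM in DNL and 147, 138 and 143 CPM in WT and was not called (adjusted p = 0.12), but was lower with scaling by library totals (log2 fold change -0.26, adjusted p = 0.000519). Targets of YAP and TAZ fell in 9 of 20 cases and rose in 5 (14 and 3 with scaling by library totals). AXL, a receptor kinase, measured 31.3, 27.6 and 30.3 CPM in DNL and 100.3, 100.2 and 101 CPM in WT (log2 fold change -1.75) and AJUBA, a LIM protein, 231, 232 and 256 CPM in DNL and 647, 622 and 682 CPM in WT (log2 fold change -1.44), while CCN2, the most used readout, was at 474, 473 and 462 CPM in DNL and 612, 611 and 614 CPM in WT with no overlap. CCN2 was not called in the fit of all 9 libraries (adjusted p = 0.101), but was lower in the fit of the 6 DNL and WT samples (log2 fold change -0.37, adjusted p = 7.81e-07), with limma-voom (adjusted p = 0.0104), with scaling by library totals (adjusted p = 0.0301) and without OA replicate 1 or OA replicate 3 (adjusted p = 0.0199 and 0.000497).

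Of 24 interferon-stimulated genes, 12 rose and 3 fell (5 with scaling by library totals, 1 without DNL replicate 1 or WT replicate 1), mostly at low levels. OAS1, which senses double-stranded RNA, measured 13.7, 12.97 and 13.6 CPM in DNL and 2.83, 2.54 and 2.82 CPM in WT (log2 fold change 2.30) and IFI6 11.55, 11.3 and 8.68 CPM in DNL and 1.10, 0.880 and 0.914 CPM in WT (log2 fold change 3.43). CD74, the invariant chain of antigen presentation, measured 192, 177 and 191 CPM in DNL and 30.5, 29.01 and 28.2 CPM in WT (log2 fold change 2.67), while its activator CIITA measured 3.33, 3.86 and 2.70 CPM in DNL and 5.96, 7.85 and 9.18 CPM in WT (log2 fold change -1.22). Of 18 clock genes, 8 rose (5 with scaling by library totals) and 3 fell, with NPAS2 at 114, 113 and 116 CPM in DNL and 65.3, 64.4 and 61.8 CPM in WT (log2 fold change 0.84) and CRY1 at 24.9, 25.4 and 25.9 CPM in DNL and 40.01, 38.7 and 40.1 CPM in WT (log2 fold change -0.64). COL2A1, the collagen of cartilage, measured 148, 136 and 146 CPM in DNL and 4.88, 5.65 and 5.19 CPM in WT (log2 fold change 4.78), and NID1, a basement membrane protein, 471, 459.9 and 448 CPM in DNL and 197, 199.9 and 188 CPM in WT (log2 fold change 1.24). INHA, the inhibin alpha subunit, measured 11.6, 11.1 and 12.5 CPM in DNL and 0.575, 0.779 and 0.768 CPM in WT (log2 fold change 4.06) and FST, the activin inhibitor follistatin, 51.7, 50.6 and 52.3 CPM in DNL and 299.6, 297 and 302 CPM in WT (log2 fold change -2.54). AFP, the fetal counterpart of albumin, was at 2069, 1993 and 2072 CPM in DNL and 2094, 1979.7 and 1987 CPM in WT, with overlapping groups (adjusted p = 0.773), while GPC3, another oncofetal protein, measured 4255, 4483 and 4741 CPM in DNL and 2944, 2950.3 and 2868 CPM in WT (log2 fold change 0.62). The groups did not overlap for any gene of this paragraph except AFP.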
